A study of Homo sapiens with 24 samples.

Results

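The comparison described here sets 3 arrays of KARPAS-422 cells treated with an EZH2 inhibitor for 3 days against 3 arrays of cells given the vehicle DMSO for 3 days, 6 of the 24 arrays of a time course. KARPAS-422 is an established human line of diffuse large B-cell lymphoma (DLBCL), and its label gives the EZH2 genotype as Y641N, which the treated and the vehicle cells share. The inhibitor, which the labels do not name, was used at 5 uM, and both arms were sampled at days 1, 2, 3 and 6 with 3 biological replicates each. Total RNA was hybridised to Affymetrix U133 Plus 2 arrays, and every value below is a log2 expression value of 1 probe set per gene, for 19775 genes. A difference is EZH2 inhibitor (EZH2i) minus DMSO at day 3 unless another day is named, so that 1 unit is a 2-fold change. The ± after a difference is its standard error (SE) in the model, with n = 3 arrays in each group. All cells come from 1 line, so the replicates measure the spread between cultures of that line and not between lymphomas.

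Polycomb repressive complex 2 (PRC2), whose enzyme is EZH2, methylates histone H3 at lysine 27 and thereby keeps genes silent. In the germinal centre, where B cells divide rapidly and mutate their antibody genes, EZH2 is abundant and holds genes of later B cell stages in check. The mutated residue of this line lies in the catalytic domain and is known to raise trimethylation of that lysine. Because methylation marks are diluted as cells divide, transcripts are known to respond to such inhibitors over days rather than hours, and day 3 is an intermediate time in this series.

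The identity of the cells was checked on the 6 arrays. The 8 measured markers of the B lymphoma line averaged 10.78 to 10.83 on the EZH2i arrays and 10.68 to 10.81 on the DMSO arrays. Among 13 markers of T and NK cells the array averages were 5.37 to 5.48 with EZH2i and 5.46 to 5.50 with DMSO. One of them, the T cell receptor subunit CD3G, was high in both arms (mean 10.91 with EZH2i and 11.09 with DMSO) and was not called; CD7 was the 1 called member (-0.24). Myeloid markers averaged 4.03 to 4.13 with EZH2i and 3.96 to 4.01 with DMSO over 11 genes, of which the lysozyme gene LYZ alone was called, as described below. The 13 stromal, endothelial and epithelial markers averaged 5.09 to 5.18 with EZH2i and 5.08 to 5.13 with DMSO, the proteoglycan gene DCN being high in both arms (13.48 and 12.83) on a probe set of a type that can also detect other transcripts. DCN and the keratin gene KRT18 were called higher (0.64 and 0.23). The call of CD7 was lost without any array of day 3 but EZH2i replicate 1, and that of KRT18 without any but DMSO replicate 2. The arrays measure RNA of the whole culture, so that a change in some of the cells and a smaller change in all of them cannot be told apart.

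At day 3 the transcriptome had moved in both directions, and the larger changes were nearly all increases. With limma and an adjusted p under 0.05, 1709 genes were higher with EZH2i (8.64% of those tested) and 1512 were lower (7.65%). The median difference was 0.60 among the higher genes and -0.36 among the lower ones, and -0.045 over all genes. At least 2-fold, 377 genes were higher (1.91%) and 21 lower (0.106%). At least 4-fold, 55 were higher and 2 lower, and 11 were at least 8-fold higher. The 2 were LTA, the ligand lymphotoxin alpha, and INHBE, an activin subunit gene that falls outside the rule for naming genes and was picked out after its values were seen.

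The groups did not overlap on their 3 arrays for 97.6% of the higher and 95.4% of the lower genes; of all genes, 13.3% did not overlap upwards and 17.5% downwards. The split between directions depended on the centring. With the median difference of all genes subtracted, 1996 genes were higher and 1001 lower, and with each array's median subtracted 1539 were higher and 2226 lower. With same-numbered arrays of a day paired 2357 genes were higher and 2496 lower. Without EZH2i replicate 2 the lower genes numbered 961, and with the 6 arrays of day 3 fitted alone they numbered 872. Of the 146 called genes named in the text, 132 kept their call without each single array of day 3, and the other 14 are pointed out where they are described. Counts of 3 or fewer members of a list often moved by over 1.5 times when 1 array was left out and serve as description. Leaving out all arrays of 1 replicate number, which leaves 2 per group, gave fewer calls in most lists; without number 2 the lower mitotic, ribosome biogenesis, mitochondrial ribosomal and synthetase genes numbered 4, 11, 9 and 5, and the higher class I genes 8.

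Increases and decreases fell on genes of different abundance, as the plot of difference against vehicle level shows. The DMSO arrays of the other 3 days do not enter the day 3 difference itself. They do share in the model's estimate of spread and in the choice of probe set. Expression on them had a median of 6.83 for the higher genes, 8.86 for the lower genes and 5.81 for all genes. Over 4 equal bins of genes by that level, in the dimmest 3.38% were called higher and 1.31% lower. In the third bin 14.2% were higher and 8.13% lower, and in the brightest bin 9.47% were higher and 18.4% lower. RMA gives no calls of detection and tends to understate differences of dim genes.

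**Figure D1:**
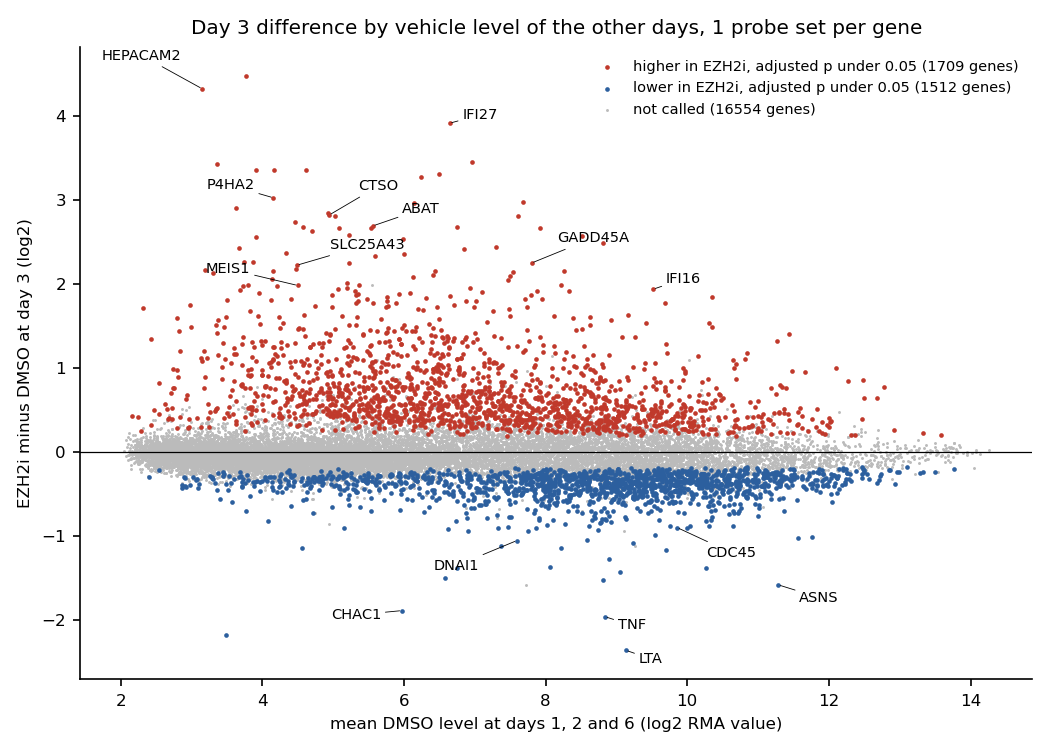
Difference between EZH2i and DMSO at day 3 (vertical axis, log2) against the mean DMSO level at days 1, 2 and 6 (horizontal axis, log2), 1 point per gene. Red marks the 1709 genes called higher and blue the 1512 called lower; LTA and INHBE are the 2 called genes below -2 units.

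The highest differences named by the rule included genes far from any pathway list. HEPACAM2, an adhesion molecule of the immunoglobulin superfamily, had values of 6.61, 7.71 and 8.07 with EZH2i, against 2.97, 2.94 and 3.53 with DMSO, a difference of 4.32 ± 0.42. P4HA2, a subunit of the collagen prolyl hydroxylase, had 5.99, 7.35 and 7.99 with EZH2i and 3.78, 4.08 and 4.41 with DMSO (3.02 ± 0.36). The DMSO levels of both were among the dim values of the arrays, and in both the EZH2i replicate 1 was the lowest treated array. CTSO, a lysosomal cysteine protease, had 7.50, 8.13 and 7.92 with EZH2i and 4.93, 4.99 and 5.17 with DMSO (2.82 ± 0.18). ABAT, the transaminase that breaks down the transmitter GABA, had 8.39, 8.35 and 8.69 with EZH2i and 5.89, 5.71 and 5.76 with DMSO (2.69 ± 0.16). For these 4 genes all treated arrays lay more than 1 unit above all vehicle arrays, and limma's adjusted p was 3.58e-06 or lower.

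SPP1, which encodes the secreted phosphoprotein osteopontin, had 7.50, 7.55 and 6.94 with EZH2i and 4.47, 5.04 and 4.27 with DMSO (2.74 ± 0.32). GIMAP2, a GTPase of the immunity-associated family, rose by 2.90 ± 0.21 and MPEG1, the pore-forming perforin-2, by 2.84 ± 0.22. RIN2, an exchange factor for RAB5, had 6.30, 7.40 and 7.04 with EZH2i and 3.48, 3.58 and 3.41 with DMSO. LYZ had 5.78, 6.18 and 5.87 with EZH2i and 3.96, 3.76 and 4.19 with DMSO (1.97 ± 0.26, limma adjusted p = 1.04e-05). The other 10 measured myeloid markers were not called, and their differences ran from -0.30 for CD14 to 0.16 for MPO.

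Genes of the interferon response formed the list with the largest share of higher members. Interferons signal through JAK kinases and STAT factors, which bind response elements in the promoters of antiviral genes. Of 64 measured effector genes 56 were higher and 0 lower, where 8.64% of all genes were higher; the list's median difference was 1.26. IFIT1, which binds foreign RNA ends, had 10.76, 11.88 and 11.90 with EZH2i and 8.45, 9.03 and 9.35 with DMSO (2.57 ± 0.40, limma adjusted p = 8.4e-05). RTP4, a chaperone of receptors that restrains viral replication, had 8.37, 9.83 and 9.44 with EZH2i and 6.20, 6.08 and 6.48 with DMSO (2.96 ± 0.26). In both genes the lowest treated array was replicate 1 and still lay above every DMSO array.

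The other effectors differed widely in size. OASL rose by 3.27 ± 0.38, XAF1, an antagonist of apoptosis inhibitors, by 2.97 ± 0.29, and the ubiquitin ligase gene HERC6 by 2.68 ± 0.38. ISG15, a ubiquitin-like modifier, was among the brightest genes of the arrays and differed by 0.86 ± 0.26, and MX1, an antiviral GTPase, by 0.95 ± 0.30. Both calls were lost without DMSO replicate 1 or 2 or EZH2i replicate 2 or 3. The 8 members that were not called included 3 guanylate-binding proteins, GBP2, GBP4 and GBP5 (0.12, -0.18 and -0.08), the nuclear body protein gene PML (0.17) and HERC5, the ligase for ISG15 (0.21). HERC5 had 3.34, 3.28 and 3.40 with EZH2i and 3.13, 3.11 and 3.16 with DMSO, near the floor of the arrays in both arms.

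Treated replicate 1 lagged behind the other treated arrays in this list. Relative to the DMSO mean of the day, the list's median was 0.88, 1.45 and 1.47 on EZH2i replicates 1, 2 and 3. IFI27 showed the widest gap, with 8.99, 11.51 and 12.43 with EZH2i and 6.75, 7.02 and 7.42 with DMSO. Its call was lost without all arrays numbered 2. The list's count of higher members was 50 to 56 when any single array of day 3 was left out, and 35 without all arrays numbered 2.

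Sensors of nucleic acids, which set off interferon production, moved with the effectors in part. Of 30 measured sensors, adaptors and Toll-like receptors, 12 were higher, where 8.64% of all genes were higher. Lower were 2 (6.67%, near the 7.65% of all genes). The list's median difference was 0.13. The DNA-binding IFI16 had 11.29, 11.78 and 11.79 with EZH2i and 9.59, 9.64 and 9.82 with DMSO (1.94 ± 0.15). TLR7, the endosomal receptor for single-stranded RNA, had 7.05, 8.05 and 8.06 with EZH2i and 5.36, 6.35 and 6.29 with DMSO (1.72 ± 0.27), so that replicate 1 was the lowest array in each arm. The RNA helicase gene RIGI rose by 1.60 ± 0.23, the kinase gene EIF2AK2 by 1.29 ± 0.13, the helicase gene DHX58 by 1.17 ± 0.20 and the adaptor gene MYD88 by 1.10 ± 0.12. IKBKE, a kinase upstream of interferon transcription, was lower by 0.47 ± 0.07. The adaptors of the DNA and RNA sensing routes, STING1 and MAVS, differed by 0.11 and 0.14 and were not called.

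The interferon genes themselves gave no call. IFNB1 had 4.42, 4.98 and 4.88 with EZH2i and 3.98, 3.94 and 4.03 with DMSO, a difference of 0.78 ± 0.28 whose limma adjusted p of 0.0579 missed the threshold although the arrays did not overlap. IFNA1 and IFNL1 differed by -0.06 and -0.25, and the receptor genes IFNAR1 and IFNAR2 by 0.18 and -0.05, none called. Of 34 measured interferons, receptors, STAT and IRF factors 10 were higher (29.4%, against 8.64% of all genes) and 0 lower. USP18, which removes ISG15 and dampens the receptor, rose by 2.44 ± 0.26, and the transcription factor genes IRF7 and IRF1 by 1.36 ± 0.30 and 1.02 ± 0.18. JAK1, a kinase of the receptors, had 9.36, 9.28 and 9.56 with EZH2i and 8.49, 8.31 and 8.37 with DMSO (1.01 ± 0.09), and its replicate 1 did not lag.

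Promoter sequences of these genes are shown because the list can be set against the binding element that defines the response. The interferon-stimulated response element was searched on both strands as a pair of GAAA cores with any 2 bases between them, from 250 bases before to 50 bases after the gene's start, in the 15384 genes that matched the RefSeq promoter table (GRCh38.p14). It was found in 2.94% of all promoters, in 6.49% of those of higher genes, in 13.1% of those at least 2-fold higher and in 1.52% of those of lower genes. Among the interferon effectors 34 of 49 promoters held it (69.4%), and among genes of the MHC class I pathway 8 of 17 (47.1%). In the 261 promoters of genes at least 2-fold higher that are in neither of those lists nor in the lists of sensors and of interferons, receptors, STAT and IRF factors the share was 3.83%. The stretches below read 5′ to 3′ on the gene's strand and end before its start, with the matches in capitals.
IFIT1, chr10:89392482-89392554, plus strand: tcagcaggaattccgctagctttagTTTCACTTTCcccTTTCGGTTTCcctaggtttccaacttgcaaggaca
IFI27, chr14:94110603-94110675, plus strand: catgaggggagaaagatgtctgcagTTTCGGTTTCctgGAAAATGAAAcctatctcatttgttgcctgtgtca
RTP4, chr3:187368318-187368384, plus strand: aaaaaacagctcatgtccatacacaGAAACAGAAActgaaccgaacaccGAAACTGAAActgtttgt
HERC5, chr4:88456969-88457079, plus strand: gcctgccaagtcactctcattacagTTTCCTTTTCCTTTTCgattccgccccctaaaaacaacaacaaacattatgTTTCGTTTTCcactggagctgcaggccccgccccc
IFIT1, IFI27 and RTP4 hold 2 matches each and rose, while HERC5 holds 3, of which 2 overlap, and was not called. XAF1 and HERC6 hold 0 matches in the window and rose by 2.97 and 2.68. A match is a description of these letters and not evidence of binding.

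Antigen presentation genes rose to a smaller extent. Class I molecules show peptides made by the proteasome to T cells. Of 20 measured genes of the class I pathway 14 were higher (70.0%, against 8.64% of all genes) and 0 lower (median 0.43). The higher count was 9 without EZH2i replicate 3. The heavy chain gene HLA-F had 10.13, 10.85 and 10.78 with EZH2i and 9.51, 9.97 and 9.79 with DMSO (0.83 ± 0.17), and HLA-G differed by 0.87 ± 0.17. Probe sets of these near-identical genes can detect each other's transcripts. The peptide transporter gene TAP1 rose by 0.77 ± 0.10, and the chaperone gene TAPBPL by 0.62 ± 0.13. The chaperones CANX, CALR and PDIA3, which serve all glycoproteins of the endoplasmic reticulum, were not called (-0.31, -0.09 and -0.08).

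Class II genes gave 6 higher members of 18 (33.3%, against 8.64% of all genes), and 3 without DMSO replicate 1. Their median was 0.15. The invariant chain gene CD74 rose by 0.46 ± 0.06 (11.82, 11.91 and 11.85 with EZH2i, 11.43, 11.43 and 11.34 with DMSO) and the transcription factor gene RFX5 by 0.50 ± 0.09. The master regulator CIITA was not called (0.20 ± 0.14). Of 55 TRIM genes, ubiquitin ligases of which several restrict viruses, 13 were higher (23.6%) and 3 lower (5.45%), against 8.64% and 7.65% of all genes. The increases were led by TRIM21, TRIM69, TRIM22 and TRIM5 (1.25, 1.10, 1.05 and 1.01).

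**Figure D2:**
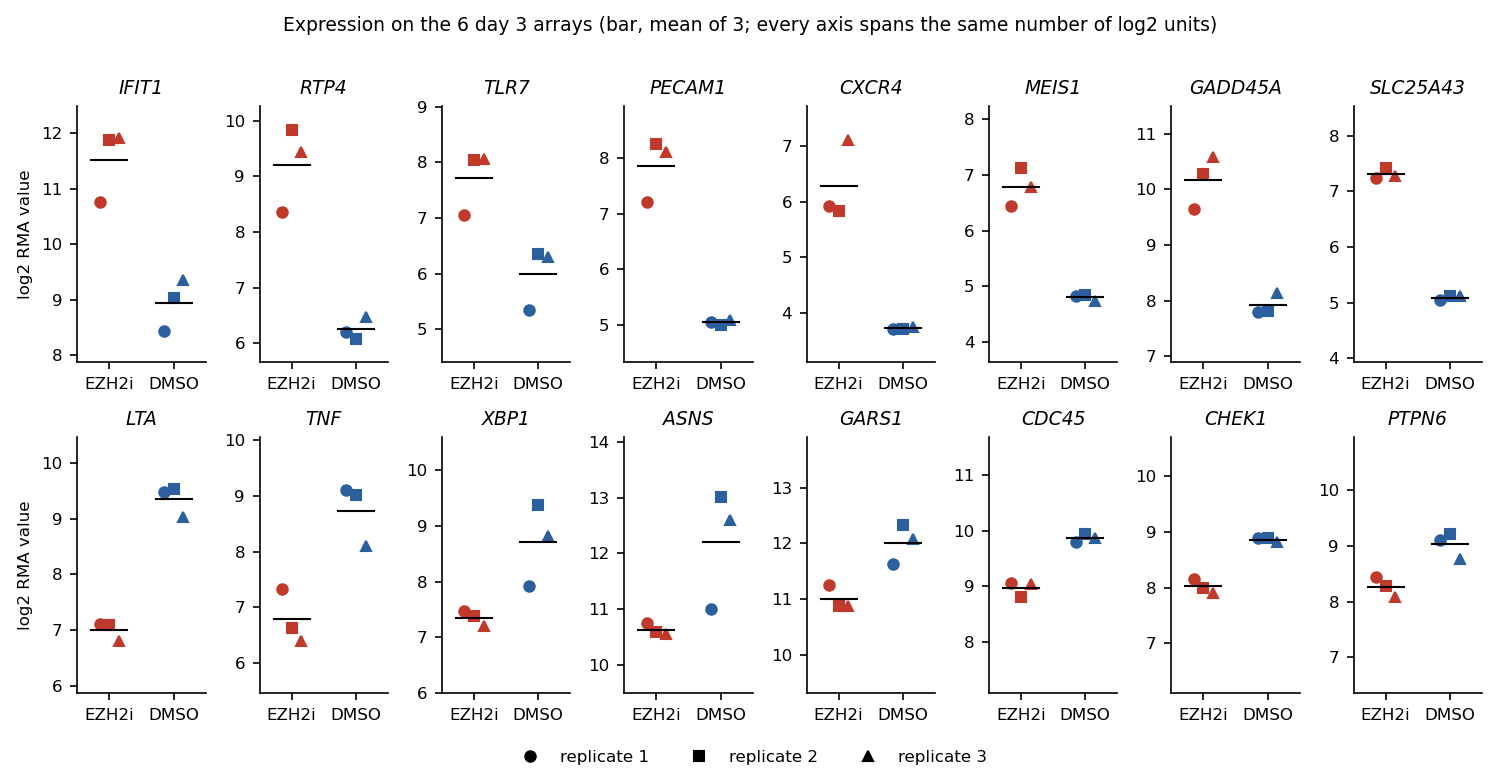
Expression of 16 genes on the 6 arrays of day 3 (vertical axes, log2 values, all spanning the same number of units), with EZH2i left of DMSO, symbols for replicates 1 to 3 and a bar at each mean. The groups do not overlap in any of the genes shown. EZH2i replicate 1 is the lowest treated array in every higher gene shown except CXCR4. DMSO replicate 1 is the lowest vehicle array in genes that include XBP1, ASNS, GARS1 and CDC45.

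Transcription factors of the germinal centre and of B cell fate changed in both directions. Of 30 measured, 9 were higher (30.0%) and 4 lower (13.3%), against 8.64% and 7.65% of all genes. Of the 4 only XBP1 remained called when DMSO replicate 1 or 2 or EZH2i replicate 2 or 3 was left out. FOXO1, a forkhead factor of germinal centre dark zone cells, had 9.48, 9.43 and 9.49 with EZH2i and 8.56, 8.53 and 8.56 with DMSO, a difference of 0.92 ± 0.06 with almost no spread within either arm. TCF12, a helix-loop-helix factor of the E protein family, rose by 0.54 ± 0.09, and the lymphoid factors IRF8 and IKZF3 by 0.36 ± 0.07 and 0.30 ± 0.08, the call of IKZF3 being lost without EZH2i replicate 3. BCL6, the central repressor of the germinal centre programme, had 12.83, 12.80 and 12.90 with EZH2i and 12.73, 12.76 and 12.83 with DMSO and was not called. PRDM1 and IRF4, which drive plasma cell formation, were not called either (-0.10 and -0.16).

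XBP1, the factor of the secretory programme of plasma cells, had 7.46, 7.38 and 7.20 with EZH2i and 7.93, 9.38 and 8.82 with DMSO (-1.36 ± 0.23, limma adjusted p = 0.000188). The treated arrays lay close together and the vehicle arrays spread over more than 1 unit, with replicate 1 the lowest of them. The same arrangement recurs in the amino acid stress genes below.

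Surface receptors of B cells were higher for 6 of 35 (17.1%, against 8.64% of all genes) and lower for 0. With same-numbered arrays paired 10 were higher. PECAM1, an adhesion receptor with inhibitory motifs, had 7.20, 8.25 and 8.11 with EZH2i and 5.05, 5.00 and 5.09 with DMSO (2.81 ± 0.25, limma adjusted p = 5.91e-08). CD48, the ligand of CD244, had 5.91, 6.37 and 5.93 with EZH2i and 4.86, 5.16 and 5.46 with DMSO (0.91 ± 0.21). Among 24 costimulatory and checkpoint ligands 7 were higher (29.2%) and 1 lower (4.17%), against 8.64% and 7.65% of all genes. CD58, the ligand of the T cell receptor partner CD2, rose by 0.76 ± 0.10, and the butyrophilin gene BTN3A2 by 0.54 ± 0.10, while CD274 and CD80 were not called (-0.26 and 0.36).

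Chemokine and positioning receptors were called at about the rate of all genes: of 22, 2 were higher and 2 lower (9.09% each, against 8.64% and 7.65%). CXCR4, the receptor that retains centroblasts in the dark zone, had 5.92, 5.83 and 7.11 with EZH2i and 3.72, 3.72 and 3.75 with DMSO (2.56 ± 0.35, limma adjusted p = 1.9e-05). S1PR2, which confines cells to the germinal centre, had 7.25, 7.33 and 7.64 with EZH2i and 8.05, 8.17 and 8.01 with DMSO (-0.67 ± 0.14, limma adjusted p = 0.00203). Replicate 3 stood above the other treated arrays in both.

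Genes that transmit the B cell receptor signal were called higher for 4 of 33 (12.1%) and lower for 3 (9.09%), near the 8.64% and 7.65% of all genes, and higher for 10 with same-numbered arrays paired. RASGRP3, an activator of RAS, rose by 1.23 ± 0.22 (8.29, 8.62 and 8.64 with EZH2i, 7.09, 7.36 and 7.43 with DMSO). PRKCB, the protein kinase that leads from the receptor to NF-kB, rose by 1.11 ± 0.14 (7.90, 8.02 and 8.12 with EZH2i, 6.71, 6.77 and 7.21 with DMSO). PTPN6, an inhibitory phosphatase, was lower by 0.76 ± 0.16 (8.44, 8.28 and 8.08 with EZH2i, 9.10, 9.22 and 8.76 with DMSO). No array of one arm reached into the other in these 3 genes.

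The list of the tumour necrosis factor (TNF) superfamily held large changes in both directions. LTA had 7.10, 7.08 and 6.79 with EZH2i and 9.48, 9.53 and 9.03 with DMSO, and TNF had 7.32, 6.63 and 6.39 with EZH2i and 9.11, 9.01 and 8.09 with DMSO. These neighbouring genes of chromosome 6 differed by -2.35 ± 0.22 and -1.96 ± 0.33. TNFSF8, the ligand of CD30, had 7.53, 7.41 and 7.59 with EZH2i and 5.21, 5.70 and 5.59 with DMSO (2.01 ± 0.18). TNFSF10, the death ligand TRAIL, had 4.04, 5.48 and 5.59 with EZH2i and 3.53, 3.49 and 3.38 with DMSO (1.57 ± 0.27), and its receptor gene TNFRSF10A was lower by 0.52 ± 0.07. In all 8 of 43 members were higher (18.6%, against 8.64% of all genes), or 5 without EZH2i replicate 2 or 3. Lower were 4 (9.3%, near the 7.65% of all genes), or 7 with same-numbered arrays paired. CYLD, a deubiquitinase that restrains NF-kB, rose by 0.85 ± 0.10.

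Several receptors of the transforming growth factor family were higher. They phosphorylate SMAD factors, whose targets include the ID genes. BMPR2, a type II receptor of bone morphogenetic proteins, had 7.18, 7.13 and 7.37 with EZH2i and 5.63, 5.24 and 5.48 with DMSO (1.78 ± 0.14). ACVR1, a type I receptor, had 4.74, 4.43 and 4.99 with EZH2i and 3.46, 3.38 and 3.82 with DMSO (1.16 ± 0.19). Of 30 genes of the pathway 8 were higher and 1 lower, against 8.64% and 7.65% of all genes, and 8 or 9 were higher when any single array was left out.

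Feedback inhibitors of the MAP kinase pathway and immediate early genes, which the pathway induces, were kept as 1 list, with members called in both directions. The inhibitor gene SPRED2 rose by 1.36 ± 0.12 and the phosphatase gene DUSP4 by 1.01 ± 0.15. ETV5, an ETS factor induced by the pathway, had 8.51, 7.86 and 7.74 with EZH2i and 9.16, 9.67 and 9.07 with DMSO (-1.26 ± 0.23), and the early genes IER2 and DUSP1 fell by 0.87 and 0.62. EGR1 spread over 3 units within the treated arm (6.22, 6.48 and 9.46) and was not called (-1.58 ± 0.60). Of 33 genes 7 were higher (21.2%, against 8.64% of all genes), or 4 without EZH2i replicate 3. Lower were 5 (15.2%, against 7.65%), or 10 without DMSO replicate 1 and 8 with same-numbered arrays paired.

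Homeobox and other developmental factors are the classical targets of Polycomb repression. At day 3 most were not called: 6 of 83 measured developmental transcription factors were higher and 3 lower (7.23% and 3.61%, near or under the shares over all genes), and 12 higher and 6 lower with same-numbered arrays paired. MEIS1, a homeobox partner of HOX proteins, had 6.44, 7.12 and 6.79 with EZH2i and 4.82, 4.85 and 4.74 with DMSO (1.98 ± 0.21). SOX9, a factor of cartilage and progenitor cells, had 9.75, 9.84 and 9.82 with EZH2i and 8.14, 7.84 and 7.69 with DMSO (1.91 ± 0.23). SNAI2, a repressor of epithelial genes, rose by 0.99 ± 0.10 and WT1 fell by 0.90 ± 0.21 (4.92, 4.82 and 4.62 with EZH2i, 5.83, 5.71 and 5.51 with DMSO).

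Among 28 HOX genes 5 were higher (17.9%, against 8.64% of all genes) and 0 lower while the median was -0.07. HOXB3 had 6.58, 6.64 and 6.34 with EZH2i and 5.04, 4.81 and 4.87 with DMSO (1.61 ± 0.13), and HOXC6 had 6.16, 6.00 and 5.34 with EZH2i and 4.33, 4.83 and 4.60 with DMSO (1.25 ± 0.23). HOXC4 and HOXB7 rose by 0.75 ± 0.07 and 0.74 ± 0.10. All 5 higher members lie in the HOXB and HOXC clusters, a count too small for a test of the clusters. Of 425 numbered zinc finger genes 27 were higher and 22 lower (6.35% and 5.18%), below the shares over all genes, with 45 and 46 when same-numbered arrays were paired and 9 lower without EZH2i replicate 2 and 14 without DMSO replicate 1.

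Genes of the Polycomb complexes were called in both directions, with differences under 1 unit. Of 13 PRC2 genes 1 was higher and 1 lower, and of 17 PRC1 genes 4 were higher (23.5%) and 3 lower (17.6%), against 8.64% and 7.65% of all genes. Without DMSO replicate 1 the lower PRC1 genes numbered 0, and without EZH2i replicate 2 they numbered 1. EZH2 had 10.08, 9.97 and 9.94 with EZH2i and 10.29, 10.41 and 10.16 with DMSO, a difference of -0.29 ± 0.12 that was not called without pairing. The core partners EED and SUZ12 differed by -0.13 ± 0.07 and -0.08 ± 0.06 and the paralog EZH1 by 0.18 ± 0.12, none called. In PRC1, which binds the methyl mark, the reader gene CBX7 had 6.56, 6.76 and 6.80 with EZH2i and 6.14, 5.97 and 6.07 with DMSO (0.65 ± 0.11), and PHC1, RYBP and PCGF5 rose by 0.56, 0.60 and 0.63. The lower PRC1 genes were PCGF6, YAF2 and KDM2B (-0.43, -0.29 and -0.22). The call of PCGF5 was lost without EZH2i replicate 2 or 3, that of PCGF6 without DMSO replicate 1 or EZH2i replicate 2, that of YAF2 without DMSO replicate 1 or 3 or EZH2i replicate 1, and that of KDM2B without any array but EZH2i replicate 3. WDR5, a subunit of the H3K4 methyltransferases, fell by 0.52 ± 0.09. DNMT1, the maintenance DNA methyltransferase, fell by 0.41 ± 0.08, and ZBTB38 and ZBTB33, zinc finger proteins that bind methylated DNA, rose by 0.67 ± 0.09 and 0.51 ± 0.08.

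**Figure D3:**
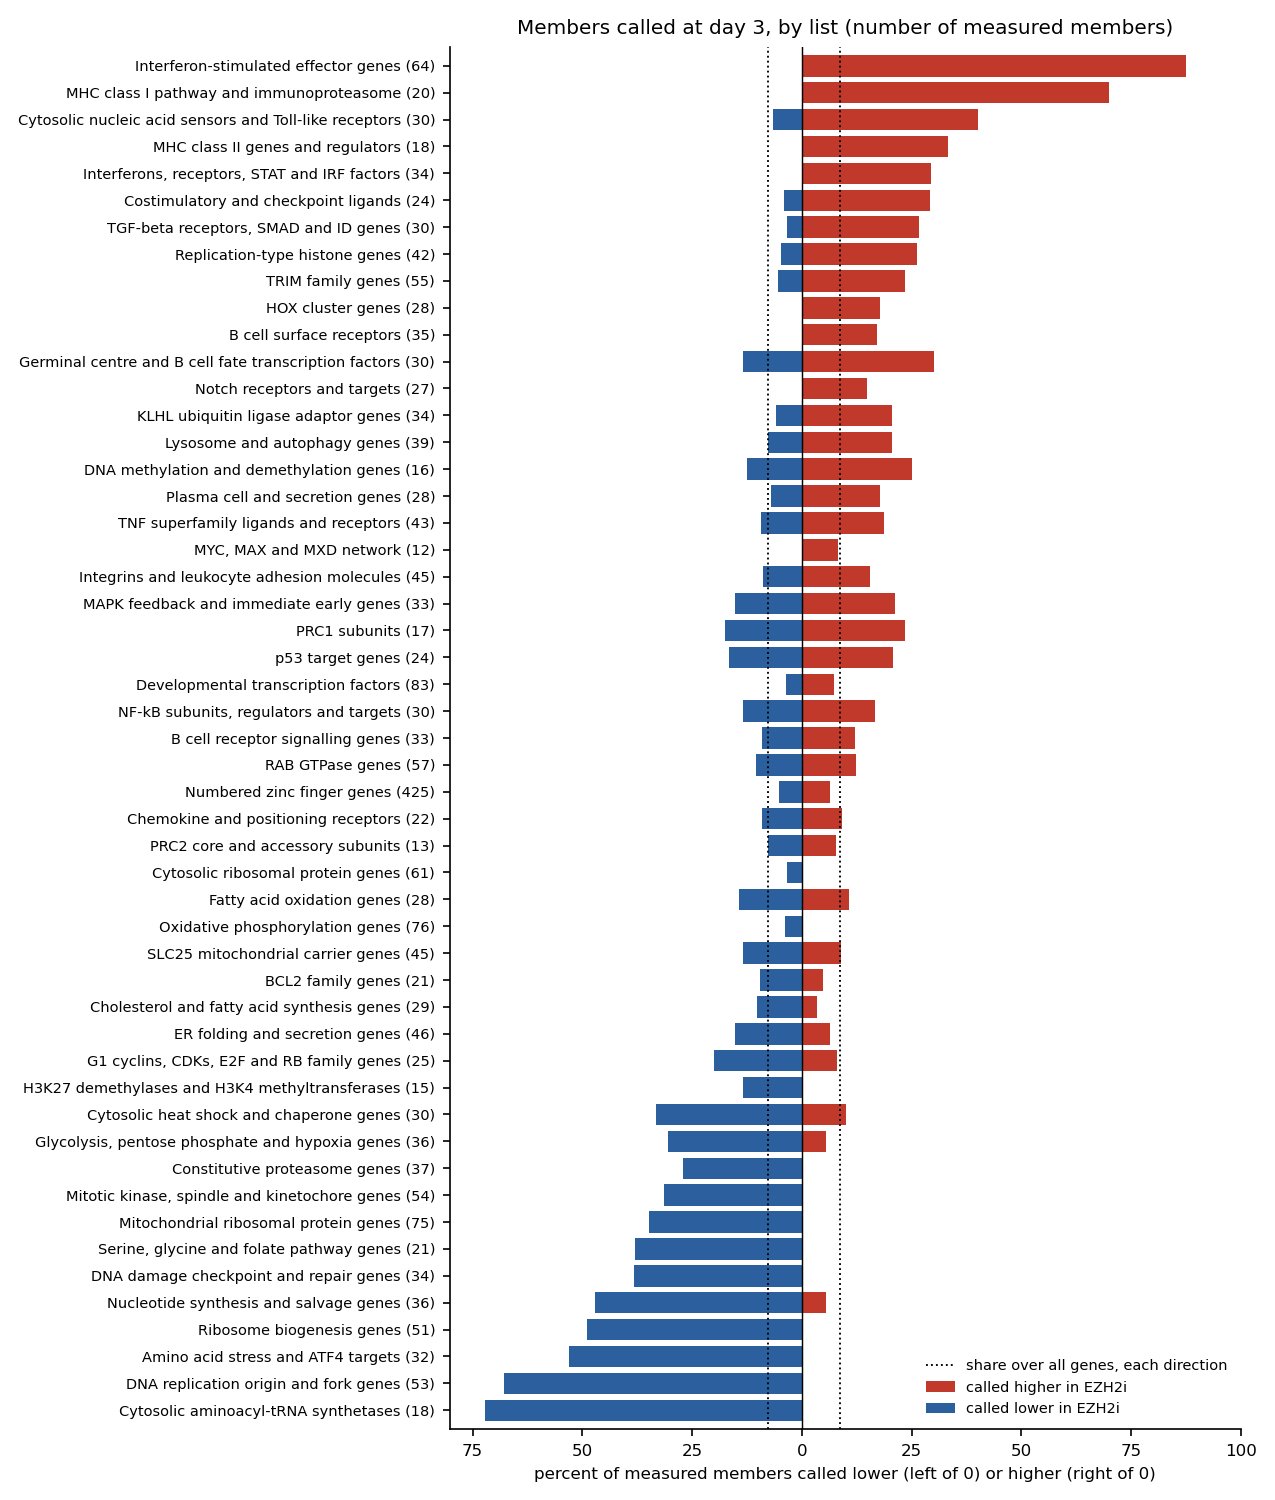
Percent of the measured members of each list called lower (blue, left of 0) or higher (red, right of 0) at day 3, with the number of measured members after each name. Dotted lines mark 8.64% and 7.65%, the shares over all 19775 genes; interferon effectors stand at the top, and replication genes and aminoacyl-tRNA synthetases at the bottom.

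Genes of DNA replication fell as a group. Of 53 measured genes of origin licensing, firing and the replication fork 36 were lower and 0 higher, where 7.65% of all genes were lower, and all 53 had negative differences (median -0.37). CDC45, a subunit of the replicative helicase, had 9.06, 8.81 and 9.04 with EZH2i and 9.80, 9.94 and 9.87 with DMSO (-0.90 ± 0.09). MCM10, which activates that helicase, had 8.73, 8.70 and 8.72 with EZH2i and 9.40, 9.44 and 9.46 with DMSO (-0.72 ± 0.10). ORC1, which marks origins, had 7.16, 6.97 and 7.08 with EZH2i and 7.93, 7.67 and 7.76 with DMSO (-0.72 ± 0.13). The licensing factor CDT1 fell by 0.71 ± 0.14, the polymerase subunit POLD1 by 0.59 ± 0.07 and the primase subunit PRIM1 by 0.57 ± 0.10. The count of lower members was 30 to 38 without any single array and 14 without all arrays numbered 2.

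Relative to DMSO at day 1 the list's median was -0.43, -0.54 and -0.42 on the EZH2i arrays of day 3 and 0.00, -0.07 and -0.02 on the DMSO arrays of day 3. The vehicle arm thus stayed at its day 1 level and the treated arm moved. CHEK1, the checkpoint kinase of stalled forks, fell by 0.84 ± 0.12. Of 34 checkpoint and repair genes 13 were lower (38.2%, against 7.65% of all genes) and 0 higher. The uracil glycosylase gene UNG was among the lower ones (-0.48 ± 0.08).

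An E2F element, searched as TTTCCCGC or TTTGGCGC on both strands in the same windows, was held by 17 of 45 replication promoters (37.8%), against 2.99% of all promoters, 5.45% of those of lower genes and 2.49% of those of higher genes. E2F factors bind such elements at the start of S phase. Examples from the list are shown, with matches in capitals.
GINS2, chr16:85688955-85689010, minus strand: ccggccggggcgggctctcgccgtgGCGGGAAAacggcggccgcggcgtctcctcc
CDT1, chr16:88803729-88803786, plus strand: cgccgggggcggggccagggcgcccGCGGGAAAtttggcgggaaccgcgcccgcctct
MCM6, chr2:135876501-135876620, minus strand: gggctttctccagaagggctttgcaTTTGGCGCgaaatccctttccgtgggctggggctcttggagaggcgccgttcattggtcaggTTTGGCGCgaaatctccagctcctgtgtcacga
The 3 genes fell by 0.58, 0.71 and 0.50. CDC45, MCM10 and ORC1, with the largest decreases named above, had no match, and some members with a match were not called. The element thus does not separate the lower members of the list from the others. Of the E2F factors themselves, E2F1 and E2F2 fell by 0.35 ± 0.09 and 0.44 ± 0.10. The cell cycle phosphatase gene CDC25A fell by 0.64 ± 0.10. Mitotic promoters held the element in 2 of 45 cases (4.44%).

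Some genes of mitosis fell. Of 54 genes of mitotic kinases, spindle and kinetochore 17 were lower (31.5%, against 7.65% of all genes) and 0 higher (median -0.23). That count was 9 without EZH2i replicate 2 or 3, 10 without DMSO replicate 1 or 3, 11 without DMSO replicate 2, and 9 after the median difference of all genes was subtracted. The kinetochore gene CENPM (-0.74 ± 0.10), the transcription factor MYBL2 (-0.69 ± 0.09) and the kinesin KIF2C (-0.59 ± 0.10) were the largest decreases. CDK1 had 11.48, 11.29 and 11.33 with EZH2i and 11.46, 11.44 and 11.45 with DMSO and was not called, and neither was the proliferation marker MKI67 (-0.28 ± 0.10, limma adjusted p = 0.0676). Whether replication and mitotic genes differ from each other was not tested.

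Of 7 measured inhibitors of cyclin-dependent kinases 0 were called higher and 2 lower (28.6%, against 7.65% of all genes). CDKN1A differed by -0.14 ± 0.15 and CDKN1B by 0.21 ± 0.14, neither called. CDKN2A, a Polycomb target in many cell types, had 8.99, 8.97 and 8.97 with EZH2i and 9.26, 9.28 and 9.30 with DMSO and was lower by 0.31 ± 0.06 (limma adjusted p = 0.000349). Some targets of p53 rose, GADD45A by 2.25 ± 0.23 (9.65, 10.27 and 10.58 with EZH2i, 7.80, 7.82 and 8.13 with DMSO) and TP53INP1 by 1.95 ± 0.13, while MDM2 and BAX were not called (-0.14 and -0.10). In that list 5 of 24 were higher (20.8%) and 4 lower (16.7%), against 8.64% and 7.65% of all genes. Of the 4, 2 stayed lower without DMSO replicate 2 or 3 or EZH2i replicate 2. Of 21 BCL2 family genes, which decide between survival and apoptosis, 1 was higher (4.76%) and 2 were lower (9.52%), against 8.64% and 7.65% of all genes. The higher one was MCL1 (0.47 ± 0.08), whose call was lost with the mean of its probe sets.

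Genes that build ribosomes fell, and few genes of the cytosolic ribosome itself were called. Of 51 ribosome biogenesis genes 25 were lower (49.0%, against 7.65% of all genes) and 0 higher (median -0.28). With same-numbered arrays paired 40 were lower, and with the day 3 arrays fitted alone 15. TSR1, a factor of small subunit maturation, had 9.70, 9.67 and 9.61 with EZH2i and 10.24, 10.19 and 10.26 with DMSO (-0.57 ± 0.06). Of 61 cytosolic ribosomal protein genes 2 were lower (3.28%) and 0 higher (median 0.01). Of 75 mitochondrial ribosomal protein genes 26 were lower (34.7%) and 0 higher (median -0.23), or 45 lower and 2 higher with same-numbered arrays paired. Of 76 genes of oxidative phosphorylation 3 were lower (3.95%). MYC, the main driver of ribosome biogenesis, had 12.01, 11.77 and 11.85 with EZH2i and 12.04, 11.88 and 11.99 with DMSO and was not called. MXI1, an antagonist of MYC, rose by 0.83 ± 0.14.

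Nucleotide synthesis genes were lower for 17 of 36 (47.2%) and higher for 2 (5.56%), against 7.65% and 8.64% of all genes. They were lower for 11 without DMSO replicate 1 or EZH2i replicate 2. PFAS and CAD, enzymes of purine and pyrimidine synthesis, fell by 0.59 ± 0.10 and 0.55 ± 0.09. SAMHD1, which degrades deoxynucleotides and is induced by interferon, rose by 0.96 ± 0.15 (10.79, 11.15 and 11.31 with EZH2i, 10.01, 10.03 and 10.34 with DMSO). PSMG1, an assembly chaperone of the proteasome, fell by 0.72 ± 0.08. It belongs to a list of 37 constitutive proteasome genes with 10 lower and 0 higher, of which 6 were lower without DMSO replicate 1 or EZH2i replicate 2 or 3, and 17 with same-numbered arrays paired.

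Amino acid stress genes were lower with EZH2i, but here the vehicle arm moved. ATF4 is the factor that cells make when amino acids run short, and it induces amino acid transporters, asparagine synthetase and tRNA synthetases. Of 32 measured targets 17 were lower (53.1%, against 7.65% of all genes) and 0 higher (median -0.59). ASNS, the asparagine synthetase, had 10.76, 10.59 and 10.55 with EZH2i and 11.01, 13.02 and 12.60 with DMSO. CHAC1, which degrades glutathione, had 5.58, 5.56 and 5.42 with EZH2i and 5.21, 8.70 and 8.30 with DMSO. INHBE had 3.54, 2.96 and 3.27 with EZH2i and 3.34, 7.01 and 5.94 with DMSO. In all of them DMSO replicate 1 lay near the treated arrays and DMSO replicates 2 and 3 lay far above.

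The list's median relative to DMSO at day 1 was -0.15, -0.14 and -0.14 on the EZH2i arrays of day 3 and -0.02, 0.82 and 0.65 on the DMSO arrays of day 3. At day 6 it was -0.15, -0.05 and -0.15 with EZH2i and 0.29, 0.27 and 0.18 with DMSO. With the day 3 arrays fitted alone 9 members were lower, and without all arrays numbered 2 or 3 there were 3 or 5. The call of CHAC1 was lost without DMSO replicate 2 or 3, and those of ASNS and ATF4 were lost without all arrays numbered 2 or 3. Leaving out DMSO replicate 1 raised the list's count to 21. The part of culture conditions in these values was not tested.

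SHMT2 and SLC7A1, like ASNS and ATF4, kept their calls without each single array of day 3. Where DMSO replicates 2 and 3 both carry a difference, leaving out 1 of them leaves the other in place. A call can still be lost in that way, as for CHAC1. In SHMT2 and SLC7A1 too DMSO replicate 1 was the lowest vehicle array. SHMT2, the mitochondrial serine hydroxymethyltransferase, had 9.86, 9.84 and 9.71 with EZH2i and 10.13, 11.09 and 10.81 with DMSO (-0.88 ± 0.14). SLC7A1, a carrier of basic amino acids, had 10.33, 10.11 and 10.12 with EZH2i and 10.63, 11.42 and 11.15 with DMSO (-0.88 ± 0.14). Of 18 cytosolic aminoacyl-tRNA synthetases 13 were lower (72.2%, against 7.65% of all genes) and 0 higher (median -0.44). The glycyl enzyme GARS1 had 11.26, 10.87 and 10.87 with EZH2i and 11.62, 12.34 and 12.07 with DMSO (-1.01 ± 0.16), and YARS1 and TARS1 fell by 0.98 ± 0.16 and 0.91 ± 0.15. Relative to DMSO at day 1 the synthetase median was -0.22, -0.35 and -0.32 on the EZH2i arrays and 0.00, 0.19 and 0.12 on the DMSO arrays of day 3, so the treated arrays lay below the starting level and DMSO replicates 2 and 3 above it.

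**Figure D4:**
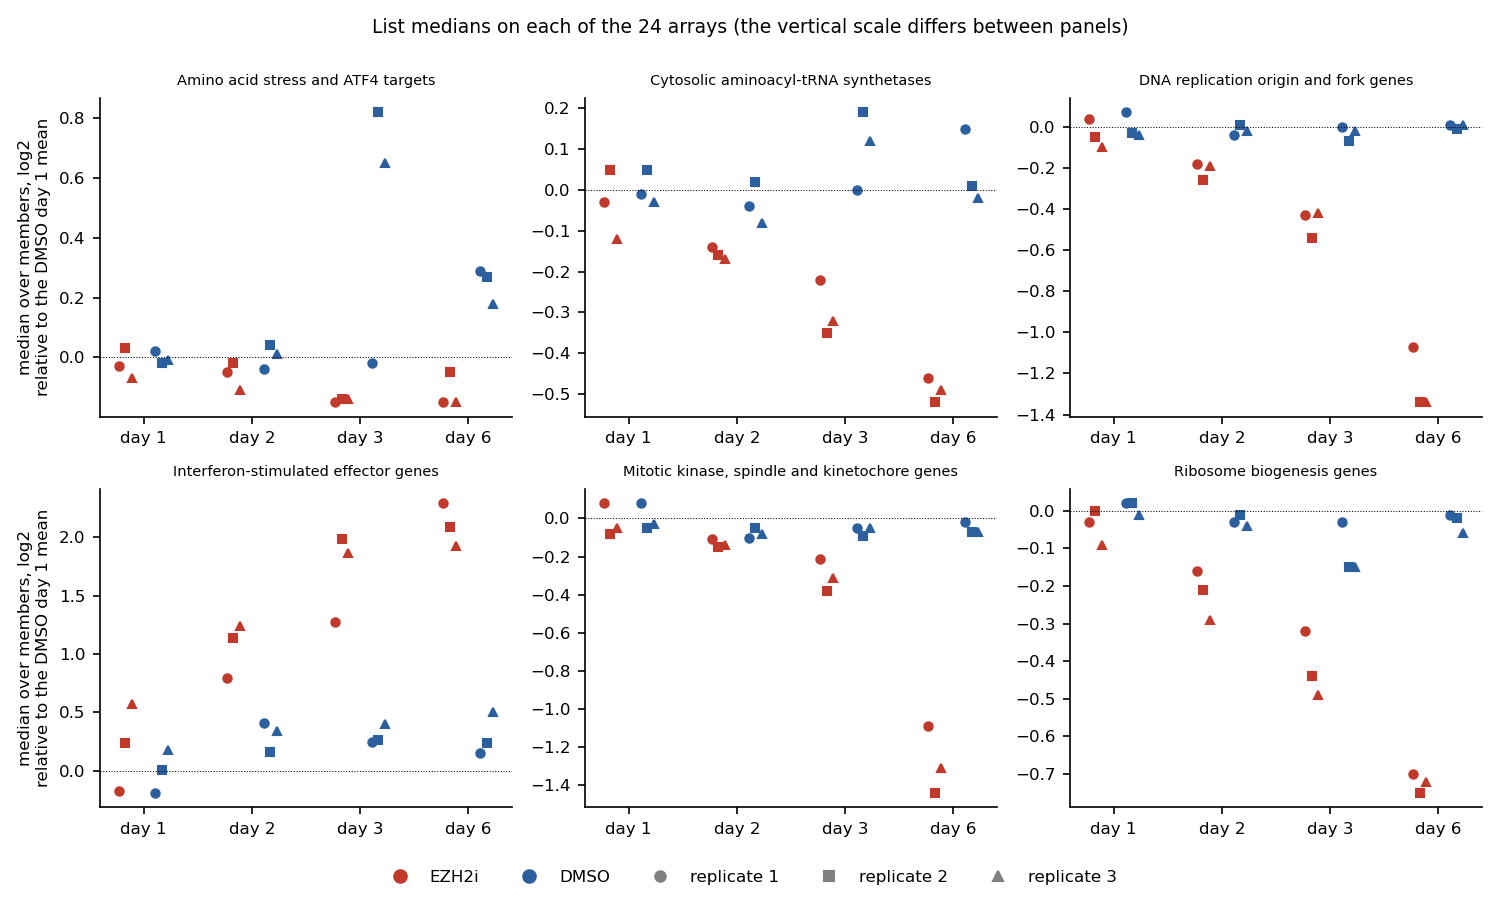
Median over the members of 6 lists on each of the 24 arrays (vertical axes, log2 relative to the DMSO mean of day 1, with scales that differ between panels) by day, EZH2i in red left of DMSO in blue, with symbols for replicates 1 to 3. The treated arm moves in the interferon, replication, mitotic and ribosome biogenesis lists, and DMSO replicates 2 and 3 of day 3 stand at 0.82 and 0.65 in the amino acid stress list.

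The response element of ATF4 was searched as TGATGNAA in the same windows on both strands. It was held by 7 of 27 promoters of the amino acid stress list (25.9%) and 5 of 14 synthetase promoters (35.7%), against 2.62% of all promoters and 2.57% of those of lower genes. Examples follow, again with matches in capitals.
ASNS, chr7:97872444-97872501, minus strand: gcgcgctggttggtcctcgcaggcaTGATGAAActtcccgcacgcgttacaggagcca
CHAC1, chr15:40953237-40953294, plus strand: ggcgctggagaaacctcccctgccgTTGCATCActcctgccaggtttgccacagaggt
AARS1, chr16:70289661-70289718, minus strand: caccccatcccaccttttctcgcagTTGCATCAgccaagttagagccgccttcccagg
AARS1, the alanyl synthetase, fell by 0.80 ± 0.12. ATF4 itself and GARS1 had no match and both fell by 1.01, and some members of the amino acid stress list with a match were not called. That list was assembled as targets of ATF4, so its raised share may follow from that choice. Across all lower genes the E2F element was the one of the 3 with a share above that of all promoters.

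**Figure D5:**
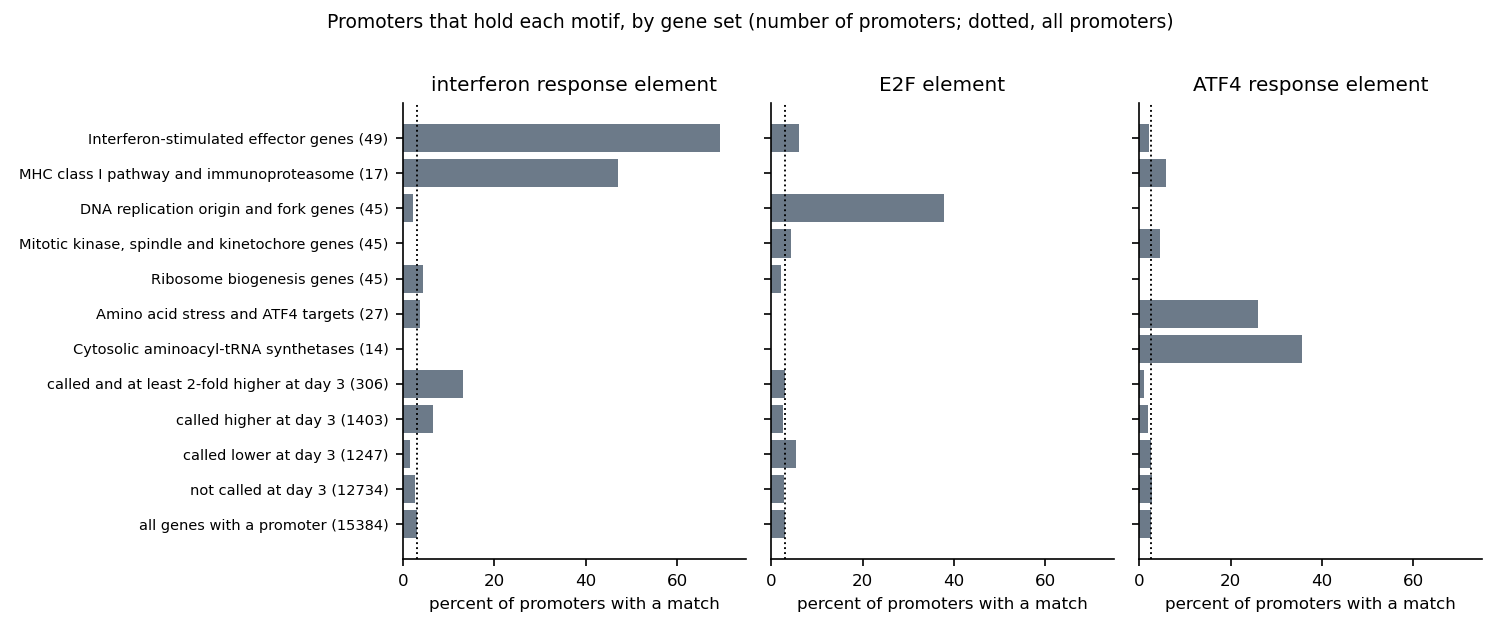
Percent of promoters with a match to the interferon, E2F and ATF4 elements (horizontal axes), by gene set with the number of promoters in brackets; dotted lines mark all 15384 promoters (2.94%, 2.99% and 2.62%). The interferon effectors reach 69.4%, the replication genes 37.8% and the aminoacyl-tRNA synthetases 35.7%, each for 1 element.

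Metabolic and membrane genes outside these programmes rose one at a time rather than as lists. SLC25A43, a mitochondrial carrier, had 7.25, 7.42 and 7.28 with EZH2i and 5.04, 5.12 and 5.12 with DMSO (2.22 ± 0.11, limma adjusted p = 3.42e-11). ECI2, an isomerase for the oxidation of unsaturated fatty acids, rose by 2.35 ± 0.19, and ABCA1, the cholesterol exporter, by 1.99 ± 0.26. In their lists 4 of 45 carriers, 3 of 28 fatty acid oxidation genes and 1 of 9 sterol export genes were higher. These shares were 8.89%, 10.7% and 11.1%, near the 8.64% of all genes. Lower were 6 carriers, 4 fatty acid oxidation genes and 1 sterol export gene, where 7.65% of all genes were lower. The count of higher carriers was 1 without DMSO replicate 2 and 2 without EZH2i replicate 2. The lower fatty acid oxidation genes numbered 1 without EZH2i replicate 2. Adaptors of the KLHL family, which bring substrates to a ubiquitin ligase, were higher for 7 of 34 (20.6%) and lower for 2 (5.88%). The increases were led by KLHL13 (2.26 ± 0.19) and KLHL29 (1.88 ± 0.23).

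Lysosomal genes were higher for 8 of 39 (20.5%), or 5 without DMSO replicate 2 or EZH2i replicate 2 or 3. They were lower for 3 (7.69%), against 8.64% higher and 7.65% lower among all genes. The protease gene CTSB rose by 1.33 ± 0.14 and the sterol carrier gene NPC2 by 0.98 ± 0.14. Of 42 replication-type histone genes 11 were higher (26.2%), or 7 without EZH2i replicate 3, and 2 lower (4.76%). H2BC5 had 9.18, 9.91 and 10.23 with EZH2i and 7.70, 7.74 and 8.29 with DMSO (1.87 ± 0.26), while the replication genes fell on the same arrays. Near-identical copies can share probes.

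Most genes called at day 3 were called in the same direction at day 6, and fewer of them at day 2. Each day has its own DMSO arrays, so these calls rest on separate samples, although all days share the fit's estimate of spread. Of the 1709 higher genes 88 were also higher at day 1 (5.15%), 668 at day 2 (39.1%) and 1594 at day 6 (93.3%), where 0.475%, 3.57% and 18.5% of all genes were higher. Of the 1512 lower genes 0 were lower at day 1, 109 at day 2 (7.21%) and 1336 at day 6 (88.4%), where 0.0101%, 0.824% and 26.9% of all genes were lower. Looking back from day 6, 43.6% of its higher genes and 25.1% of its lower genes were already called at day 3.

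The EZH2i mean of day 3 lay above the DMSO means of all the other days for 1701 of the 1709 higher genes (99.5%). It lay below all of them for 1476 of the 1512 lower genes (97.6%). These genes were called on the same EZH2i arrays, so high shares follow in large part from the call. The share over all genes is not given here, and the values serve as description.

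Genes defined at day 6 alone show how far day 3 had gone. Over the 1013 genes called and at least 2-fold higher at day 6 (5.12% of all), the median relative to the DMSO mean of the day was 0.66, 0.83 and 0.92 on EZH2i replicates 1, 2 and 3 of day 3, and -0.04, 0.01 and 0.04 on the DMSO arrays. On the EZH2i arrays it was 0.42, 0.48 and 0.58 at day 2. Over the 481 genes at least 2-fold lower at day 6 (2.43%) it was -0.37, -0.50 and -0.47 on the EZH2i arrays of day 3 and 0.03, -0.01 and -0.04 on the DMSO arrays. Treated replicate 1 was the array nearest to DMSO in both sets.

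The change between days was tested as a difference of effects. Between days 2 and 3 limma called 0 genes, although 693 were higher and 621 lower at an unadjusted p under 0.05 (6.64% of genes together) and the lowest adjusted p was 0.126. With the replicate number as a block 9 were higher and 2 lower, or 14 and 3 with the block within each day. Without EZH2i replicate 1 of day 3 there were 30 higher and 1 lower, and without DMSO replicate 1 of day 3 there were 8 higher and 51 lower. Between days 3 and 6 the effect was higher for 1182 genes (5.98%) and lower for 1292 (6.53%), or 1903 and 2074 with the block within each day. Among the genes called at day 3, 617 of the higher had a larger effect at day 6 and 633 of the lower a more negative one.

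The lists had these values over the days. Over all genes 3.57%, 8.64% and 18.5% were called higher at days 2, 3 and 6. The shares called lower were 0.824%, 7.65% and 26.9%, so the counts of list members rise along with the calls in general. Interferon effectors had median effects of 0.73, 1.26 and 1.73 at days 2, 3 and 6, with 28, 56 and 57 of 64 higher. Replication genes had medians of -0.20, -0.37 and -1.33, with 3, 36 and 53 of 53 lower, and mitotic genes -0.09, -0.23 and -1.24, with 2, 17 and 54 of 54 lower. The amino acid stress list had -0.05, -0.59 and -0.28, with 0, 17 and 13 of 32 lower. Ribosome biogenesis genes had -0.18, -0.28 and -0.66, with 4, 25 and 48 of 51 lower. The differences between the courses of lists were not tested.

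A small set of genes was changed at day 3 and less so, or in the other direction, at day 6. By the same test, 19 of the higher genes (1.11%) had a lower effect at day 6 than at day 3. Of the lower genes 10 (0.661%) had a higher one. Over all genes the effect at day 6 was lower for 6.53% and higher for 5.98%. The call and the test share the day 3 arrays, so errors in those arrays favour a smaller effect at day 6, and the genes serve as description. S100A4, a calcium-binding protein of motile cells, was higher by 1.03 ± 0.12 at day 3 and differed by 0.28 at day 6 (limma adjusted p of the change = 0.00435). HEY1, a repressor downstream of Notch, had 6.27, 5.95 and 6.04 with EZH2i and 5.35, 5.34 and 5.46 with DMSO at day 3 (0.70 ± 0.11) and differed by -0.21 at day 6 (limma adjusted p of the change = 0.000512). NLRP11, an inflammasome family gene, differed by 0.82 at day 3 and -0.07 at day 6. GPHN, the scaffold of inhibitory synapses, was higher by 0.47 at day 3 and lower by 0.54 at day 6, and AKNA was lower by 0.35 at day 3 and higher by 0.27 at day 6. The calls of GPHN and AKNA at day 3 were each lost without any of 4 single arrays, DMSO replicates 1 and 3 and EZH2i replicates 1 and 3 for GPHN, and DMSO replicates 1 and 2 and EZH2i replicates 2 and 3 for AKNA. Apart from HEY1 these genes were chosen after their values were seen.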

How the data were processed

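The values are the authors' deposited log2 expression values of 24 Affymetrix U133 Plus 2 arrays, for which the submitters' processing notes name RMA and R 2.10.1. The log base is not given in the sources used here and was taken as 2 from the range of 1.72 to 14.33; array medians ran from 4.958 to 5.032. RMA values carry no background or detection call, and the number of arrays limits the precision.

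Of 54613 probe sets, 41091 had 1 gene symbol, 1801 several and 11721 none. Symbols of 41037 probe sets were updated through Entrez identifiers. Each of 19775 genes was represented by its brightest probe set on average over the 24 arrays. A model with 8 groups of 3 arrays (16 residual degrees of freedom, 5.22 prior) was fitted with limma 3.58.1 in R 4.3.3, with Benjamini-Hochberg adjustment over all genes and calls at an adjusted p under 0.05. It was tested on simulated data. Alternatives were other normalizations, filters and variance settings, a mean over probe sets, the replicate number as a block, and leaving out arrays.

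Same-numbered arrays of day 3 deviated together (correlations of 0.381, 0.191 and 0.371 between arms, against -0.359 to 0.013 for other pairs), so the numbers pair the arrays there; the labels call the replicates biological and do not say what a number marks.

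Named genes follow a rule: the 20 highest and 20 lowest called differences whose arrays do not overlap, up to 6 called members per list and direction, all members of lists of 20 or fewer, EZH2, and the 10 highest and 10 lowest changes between days. The text names 39 genes outside it, chosen after their values were seen, among them members given as not called. Members and lists were chosen with earlier results of these data known. Promoter sequences are from RefSeq (GRCh38.p14).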

Additional observations from a re-analysis of the deposited data

Results flagged for a closer look

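The effect of the inhibitor at day 6 differed from that at day 3, by a test of the difference itself with limma, for 1182 genes in the higher and 1292 genes in the lower direction. The 10 named genes with the largest gain in effect, in log2 units of day 6 minus day 3, were ZNF595 (4.26), TNFRSF21 (3.55), MPEG1 (3.5), RAG1 (3.39), TMEM71 (3.12), PMAIP1 (2.93), CXCR4 (2.74), TCL1A (2.71), H2AC6 (2.6) and TMEM255A (2.58). RAG1, a subunit of the recombinase that assembles antigen receptor genes, differed by 0.29 at day 3 without a call and by 3.67 at day 6. PMAIP1, a BH3-only member of the BCL2 family, had 9.29, 9.71 and 9.99 with EZH2i and 8.93, 11.32 and 10.93 with DMSO at day 3, where DMSO replicate 1 was the low array.

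The 10 with the largest loss were CHEK1 (-1.7), COL9A3 (-1.66), ORC1 (-1.66), MCM10 (-1.61), MCM4 (-1.54), FASN (-1.52), DNAI1 (-1.51), CDCA7 (-1.45), CDC6 (-1.42) and ELOVL6 (-1.41). Of these COL9A3, CDCA7 and ELOVL6 were not called at day 3 (-0.05, -0.50 and -0.16). The day 3 call of MCM4 was lost without DMSO replicate 1 or EZH2i replicate 2 or 3, and that of TMEM255A without DMSO replicate 1 or 2 or EZH2i replicate 2 or 3.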

How the results depend on the processing

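The 375 genes followed here were the called genes under the naming rule and EZH2, which was not called. Of these 206 lost a call under at least 1 of 19 settings, 169 lost none and 0 changed direction. With the dimmest 40% of genes left out, only 335 of the 375 could be assessed. The 1709 higher genes of day 3 numbered 858 to 1654 when arrays were left out, the lowest without all arrays numbered 2. The 1512 lower genes numbered 376 to 1413, again lowest without those arrays, 1001 after the median difference was subtracted and 872 with only the day 3 groups fitted. With the replicate number as a block, which pairs arrays, 2236 were higher and 2359 lower, and with the block within day 2357 and 2496. For the effect at day 3 minus day 2, with 0 genes in each direction, the block gave 9 higher and 2 lower, the block within day 14 and 3, array weights 13 and 3, and leaving out arrays 0 to 30 higher and 0 to 51 lower. For day 6 minus day 3 (1182 higher, 1292 lower) the block gave 1783 higher, the block within day 1903 and 2074, and leaving out arrays 268 to 1204 higher and 333 to 1303 lower. Leaving out arrays also leaves fewer samples; other causes were not tested. Differences of dim genes are limited by background signal, which RMA values do not report.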
